A study of Mus musculus with 8 samples.

Results

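Mediator is the large complex that passes signals from DNA-bound transcription factors to RNA polymerase II at promoters. Its subunits form a head and a middle module that touch the polymerase, a tail that many activators bind, and a detachable kinase module built on CDK8 or its paralog CDK19. Embryonic stem cells are known to depend on Mediator for transcription of their identity genes. The transcripts followed here are those of 33 genes, 7 of the head, 10 of the middle, 9 of the tail and 7 of the kinase module, out of 38991 genes measured. They were chosen by gene symbol, and every symbol matched 1 gene. The list was drawn up because Med17 was already known to be higher in the knockout of these data, so the change of Med17 is given as a description with no test, and the question is whether other subunits share it.

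The study measured RNA from mouse embryonic stem cells that carry an inducible deletion of Prmt5, the arginine methyltransferase of the spliceosomal Sm proteins. There were 4 iPHet libraries, the control genotype, and 4 iPKO libraries, the Prmt5 knockout. Both genotypes were male C57BL/6 lines from blastocysts of embryonic day 3.5, derived on fibroblast feeders, kept under passage 20 and moved to 2i ground state medium. Cells of both genotypes received 2 µM 4-hydroxytamoxifen for 48 hours, the agent that brings about the deletion, and then fresh medium. The labels name line PC1 for iPHet and line PC4 for iPKO in most experiments, so genotype and line cannot be told apart. The control may carry 1 deleted copy of Prmt5, going by its name. The labels are silent on whether the 4 libraries of a genotype are separate cultures. Every p-value therefore reflects only the spread among these libraries, which may be technical. Means are given with the SD over the 4 libraries (n = 4), iPHet first and iPKO second.

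Values are FPKM, in which fragments are divided by transcript length and by library size, so levels of different genes can be set side by side. Prmt5 was lower in every iPKO library, at 11.8 to 15.0 FPKM against 52.8 to 72.2 FPKM in iPHet, in the direction of the labels. The 10 pluripotency markers were all above 1 FPKM in some library, with Pou5f1 at a mean of 298 FPKM in iPHet and 260.3 FPKM in iPKO. Of these 10, Sox2 fell, from 91.8 ± 5.31 to 70.1 ± 2.15 FPKM (n = 4, limma adjusted p = 0.00539), and Esrrb was lower without overlap but not called (limma adjusted p = 0.0834). The 6 trophoblast markers summed to at most 52.4 FPKM in iPHet and to 60.1 to 65.0 FPKM in iPKO, without overlap. Cdx2, Elf5, Hand1 and Gata3 averaged below 1 FPKM in both genotypes and were not tested. Tfap2c made up most of the sum and was not called (limma adjusted p = 0.194). Eomes was 1.62-fold higher without overlap and was not called either (limma adjusted p = 0.0567). The part of these markers in the results below was not tested. Of 9 markers of fibroblast feeders, 6 stayed below 1 FPKM in every library, and Postn and Lum were listed at 0 throughout. The summed level of that list was 2.59 to 4.72 FPKM in iPHet and 2.87 to 6.27 FPKM in iPKO. Within a genotype, libraries 1 and 3 were near copies of each other, as were 2 and 4. Over 8139 well expressed protein-coding genes their median absolute log2 difference was 0.0594 to 0.0698, against 0.198 to 0.215 between an odd-numbered and an even-numbered library. Values for libraries 1 and 3 (odd-numbered) and for 2 and 4 (even-numbered) are therefore given beside many of the results, and the test was repeated with these pairs averaged.

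Med17 is the scaffold of the head module, and it was the member with the largest change. The gene (ENSMUSG00000031935) lies on the minus strand of chromosome 9 from 15260352 to 15279867 of mm10. GENCODE release vM21 lists 4 transcripts, of which the principal one has 12 exons, 3 are protein-coding and 1 retains an intron. In iPHet 1 to 4 Med17 stood at 9.10, 9.22, 8.47 and 9.51 FPKM. In iPKO 1 to 4 it stood at 19.1, 23.9, 19.7 and 24.8 FPKM. Every iPKO library was far above every iPHet library, and within iPKO the even-numbered libraries were the higher ones. The mean was 9.07 ± 0.438 and 21.9 ± 2.91 FPKM (SD, n = 4), 2.41-fold higher. On the log2(FPKM + 1) scale the difference was 1.18 with every library, 1.06 in libraries 1 and 3, and 1.29 in libraries 2 and 4. In order of level among the 33 genes Med17 moved from rank 26 in iPHet to rank 14 in iPKO. The same scale put 128 of 12462 tested genes (1.03%) at or above the difference of Med17.

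No gene of the files overlaps the locus of Med17. Vstm5, on the other strand, ends 958 bases away and was not tested, at 0.967 ± 0.0979 and 0.607 ± 0.108 FPKM (SD, n = 4). On the side of the start site of Med17, the gene 4931406C07Rik ends 3469 bases away and stood at 4.12 ± 0.510 and 4.27 ± 0.103 FPKM (n = 4, limma adjusted p = 0.751). Taf1d and 5830418K08Rik, farther on the same side, had log2 changes of 0.29 and 0.54 (limma adjusted p of 0.126 and 0.0847). None of the tested protein-coding neighbours was called.

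The 250 bases before the RefSeq start site of Med17 are shown with those of Med11 and Med19, because these 3 genes had the largest differences among the members whose genotypes did not overlap upwards. Med17 is at chr9:15279907-15280156 on the minus strand, Med11 at chr11:70451668-70451917 and Med19 at chr2:84678152-84678401, both on the plus strand, all of RefSeq build GRCm38.p6. Capitals mark matches on either strand to any of 8 motifs searched.
Med17: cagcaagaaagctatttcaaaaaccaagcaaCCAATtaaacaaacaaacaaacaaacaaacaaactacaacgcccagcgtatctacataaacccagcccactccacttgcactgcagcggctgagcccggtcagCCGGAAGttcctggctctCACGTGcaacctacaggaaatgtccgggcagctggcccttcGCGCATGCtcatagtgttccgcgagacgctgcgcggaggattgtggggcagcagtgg
Med11: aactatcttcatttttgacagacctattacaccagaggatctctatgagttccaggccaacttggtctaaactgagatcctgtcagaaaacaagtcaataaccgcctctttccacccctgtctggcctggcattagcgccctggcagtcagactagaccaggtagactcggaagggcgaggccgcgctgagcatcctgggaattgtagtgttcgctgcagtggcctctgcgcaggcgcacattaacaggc
Med19: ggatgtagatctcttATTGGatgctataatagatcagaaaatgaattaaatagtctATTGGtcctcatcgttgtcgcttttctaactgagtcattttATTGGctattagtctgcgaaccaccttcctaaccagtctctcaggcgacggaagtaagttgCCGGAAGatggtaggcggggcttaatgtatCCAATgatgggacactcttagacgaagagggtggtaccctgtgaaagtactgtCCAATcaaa

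The motifs were the ETS site CCGGAAG and the NRF1 site GCGCATGC. The E-box CACGTG and the SP1 site GGGCGG were searched too. So were the YY1 site AAGATGGC and the CRE site TGACGTCA. The last were CCAAT and the TATA box TATAAA. No marked match shares a base with another. The window of Med17 held CCGGAAG starting 116 bases before the start site, CACGTG at 98 bases, GCGCATGC at 57 bases and CCAAT at 219 bases. The window of Med19 held CCGGAAG at 92 bases and 5 matches to CCAAT, and that of Med11 held no match to any of the 8. Among 32851 promoter windows of the same length, CCGGAAG was in 6.91%, GCGCATGC in 2.26%, CACGTG in 6.02% and CCAAT in 33.8%. Of the 33 members 28 had a window, and CCGGAAG was in 6 of them (Med4, Med10, Med14, Med15, Med17 and Med19). GGGCGG was in 19 of the 28 members (67.9%) and in 32.7% of all windows. A member counted if any window of its symbol matched, while the shares of all windows count each window. Those windows were not limited to genes expressed here, so the shares are of unlike sets and their difference was not tested. A match is a description of the letters only.

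All 33 members passed the filter of a mean of at least 1 FPKM in a genotype, and they did so in both genotypes. The test was limma on log2(FPKM + 1) over all 12462 genes that passed, with a gene called at an adjusted p under 0.05. Of the 32 members other than Med17, 1 rose (3.12%), 0 fell and 31 were not called. Across all tested genes 6.30% were called higher and 9.53% lower, and with 32 members no difference from these shares was tested. The median log2 change of the other 32 was 0.01, with 16 above 0 and 16 below, and the median over all tested genes was -0.04. Absolute log2 changes under 0.3 were found in 30 of the 32 (93.8%) and in 69.6% of all tested genes. The 2 sets are unlike in level, with a median iPHet mean of 19.0 FPKM for the 32 and 10.8 FPKM for all tested genes. All tested genes also include genes that are not protein-coding, and the difference between these shares was not tested. The 95% interval of the log2 change lay below the 1.18 of Med17 for each of the 32, the highest upper limit being 1.02 for Med11. The 1.18 is itself an estimate, of the change that chose the list, and its own spread is not counted here. These intervals also take the near-copy libraries as separate, so the comparison is a description and not a test.

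The fit with the replicate number as a block is set beside this, although pairing by number was not established (see the methods). It called 4 of the 32 higher (Med11, Med19, Med31 and Cdk19) and 3 lower (Med1, Med9 and Med16). In that fit 10.9% of all tested genes were higher and 16.6% lower, against 12.5% and 9.38% of the 32 members. With the libraries of each pair averaged, 0 of the 32 were called in either direction by limma, and 7 genes of 12462 were called in all. That fit did not call the deleted gene Prmt5 either (limma adjusted p = 0.191), so a call lost in it says little about a member. At an estimated correlation within pairs of 0.839, limma called 0 of the 32 and 52 genes in all. In that fit the interval of Med11 reached 1.42, so a rise of Med11 as large as that of Med17 is inside it, while the intervals of the other 31 lay below 1.18. With pairs averaged, 30 of the 32 intervals lay below 1.18, and the highest upper limit was 1.31, for Med12l.

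**Figure D1:**
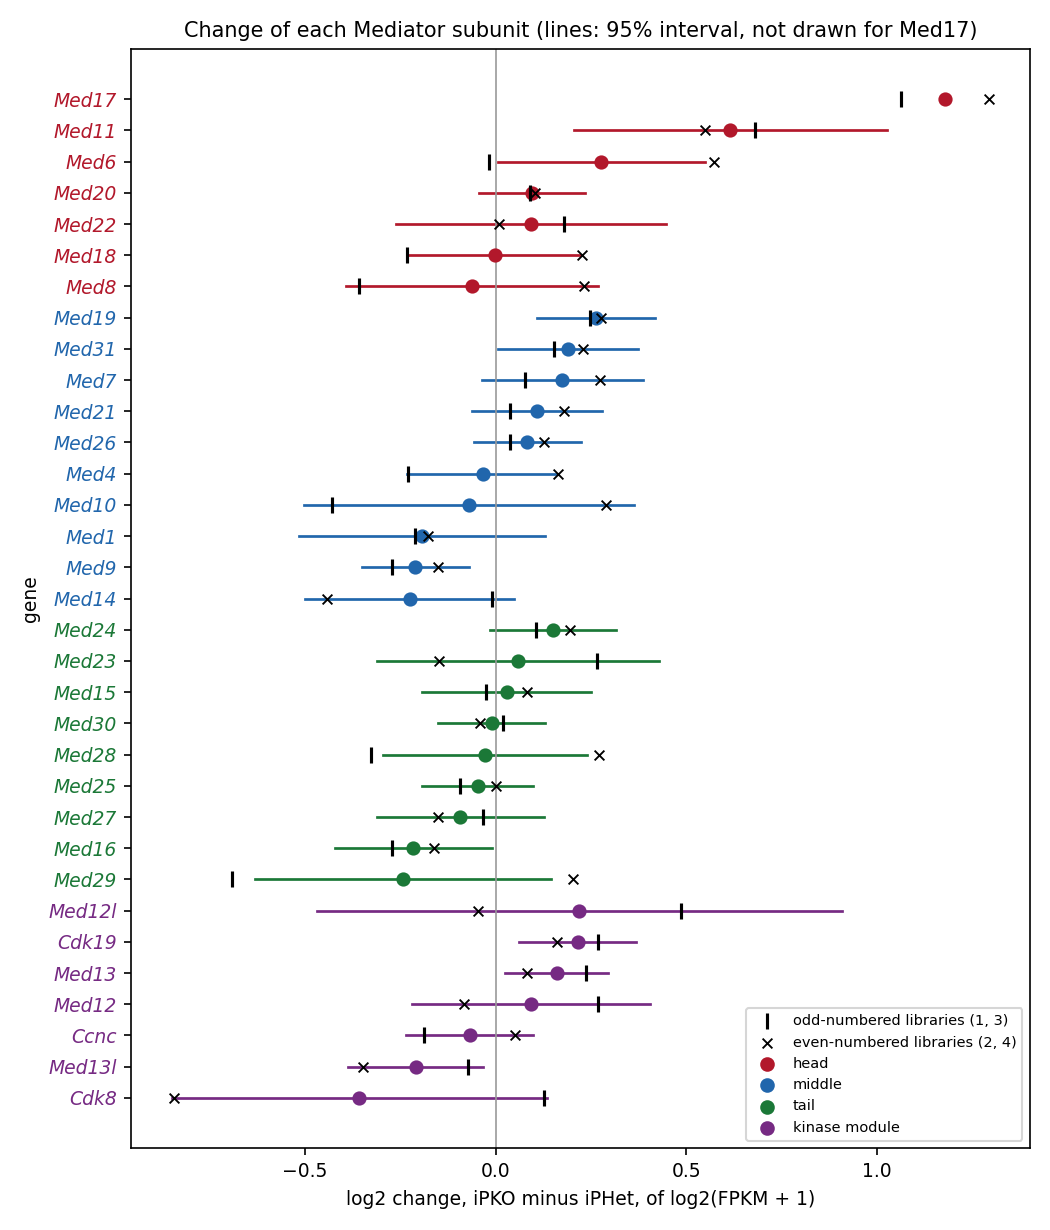
Log2 change of each of the 33 transcripts (horizontal axis, iPKO minus iPHet on the log2(FPKM + 1) scale), by module. Dots are the estimate over 8 libraries, lines its 95% interval (not drawn for Med17, whose change chose the list), bars the odd-numbered and crosses the even-numbered libraries. Med17 stands at 1.18 and Med11 at 0.61, and the other dots lie between -0.36 and 0.28.

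The head module was the module of Med17, and its other 6 transcripts had log2 changes from -0.06 to 0.61, with 0 called. Med11, a small head subunit that pairs with Med22, came closest to Med17. Med11 stood at 21.5, 23.3, 15.2 and 27.8 FPKM in iPHet 1 to 4 and at 28.8, 36.2, 30.3 and 39.3 FPKM in iPKO 1 to 4. The genotypes did not overlap, though the highest iPHet library and the lowest iPKO library were only about 1 FPKM apart. The mean was 21.9 ± 5.21 and 33.7 ± 4.91 FPKM (SD, n = 4), a ratio of 1.53. The log2 change was 0.61 (SE 0.18) and limma adjusted p = 0.0515, just outside the threshold. It was 0.68 in libraries 1 and 3 and 0.55 in libraries 2 and 4. With the replicate block the limma adjusted p was 0.0153, and with pairs averaged 0.542. Without iPHet 4 it was 0.0396, and without any other single library it lay between 0.0690 and 0.114.

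Med22, the partner of Med11, stood at 22.6 ± 4.61 and 24.1 ± 3.42 FPKM (n = 4, limma adjusted p = 0.721). The even-numbered libraries of both genotypes were the high ones for Med22, at 25.4 to 28.3 FPKM against 18.5 to 21.3 FPKM. Med6, which sits between the head and the middle, showed a change in 1 pair of libraries. In the odd-numbered libraries Med6 was 16.4 and 16.6 FPKM in iPHet and 17.2 and 15.4 FPKM in iPKO. In the even-numbered ones it was 13.4 and 12.5 FPKM in iPHet against 19.7 and 19.8 FPKM in iPKO. The log2 change of Med6 was 0.28 (SE 0.12, limma adjusted p = 0.150) over all libraries. Med8, which tethers the movable jaw of Med18 and Med20, was the most abundant head transcript at 41.4 ± 8.61 and 39.0 ± 3.32 FPKM (SD, n = 4). Med8 and Med18 were lower in the odd-numbered iPKO libraries and higher in the even-numbered ones, with log2 changes of -0.36 and 0.23 for Med8 and of -0.23 and 0.23 for Med18. Med20 differed by 0.10 (95% interval -0.04 to 0.23).

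**Figure D2:**
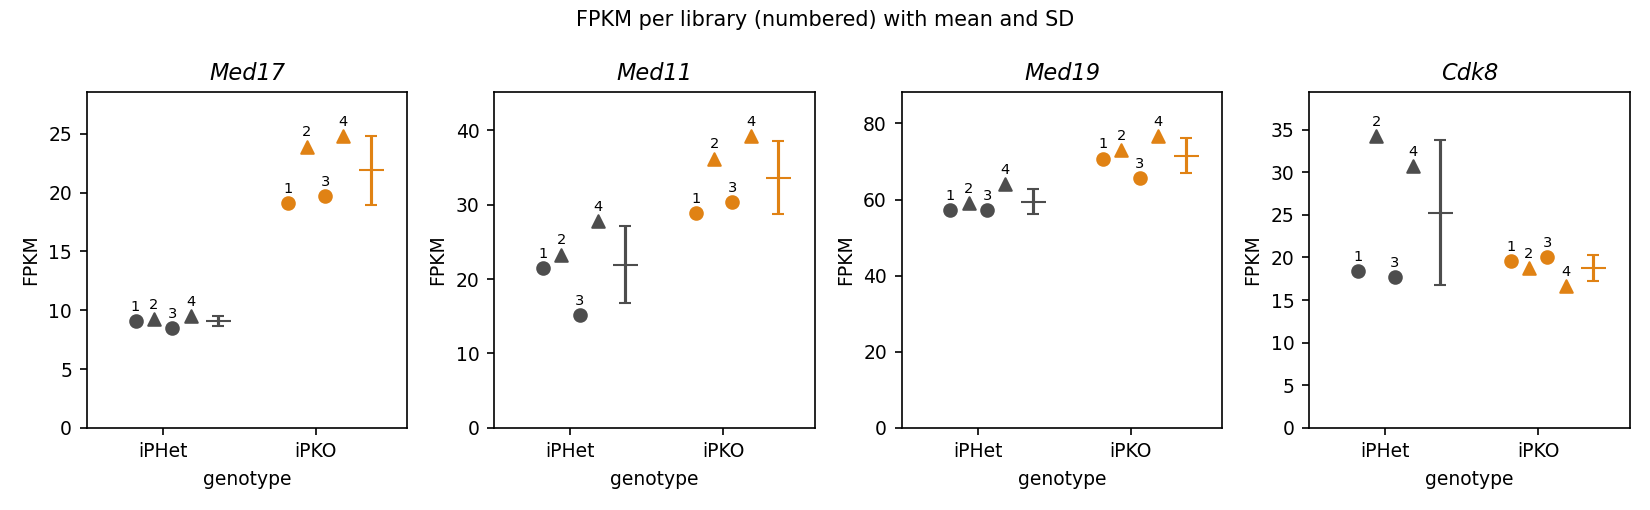
FPKM in each numbered library of iPHet (grey) and iPKO (orange), for Med17, Med11, Med19 and Cdk8, with mean and SD beside the points (n = 4 each). Circles are odd-numbered and triangles even-numbered libraries. Med17 is 8.47 to 9.51 in iPHet and 19.1 to 24.8 in iPKO, while for Cdk8 the iPHet libraries 2 and 4 stand above all others.

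In the middle module, which carries contacts between the head and the rest of the complex, 1 of 10 transcripts rose and 0 fell. Over all tested genes 6.30% rose and 9.53% fell, and no module was tested against these shares. Med19, a middle subunit close to the polymerase, was the member called. Med19 stood at 57.3, 59.2, 57.3 and 64.0 FPKM in iPHet 1 to 4 and at 70.8, 72.9, 65.7 and 76.7 FPKM in iPKO 1 to 4. The groups did not overlap, but iPHet 4 and iPKO 3 were close together. It rose from 59.4 ± 3.19 to 71.5 ± 4.62 FPKM (SD, n = 4), a ratio of 1.20 and a log2 change of 0.26 (SE 0.07, limma adjusted p = 0.0350). The change was 0.25 in libraries 1 and 3 and 0.28 in libraries 2 and 4. The call of Med19 was lost without any 1 of iPHet 1, 2 or 3 or iPKO 1, 2 or 4, at limma adjusted p of 0.0750 to 0.0854, and it was lost with pairs averaged (0.650). Tmx2 and Zdhhc5 overlap Med19 on the other strand, and whether the FPKM were made by strand is not known here, so reads of these genes cannot be told apart. Tmx2 stood at 53.3 ± 4.92 and 47.7 ± 2.38 FPKM and Zdhhc5 at 15.6 ± 1.79 and 14.9 ± 0.628 FPKM (SD, n = 4), and neither was called (limma adjusted p of 0.217 and 0.666).

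The other 9 middle transcripts were not called. Med14, the backbone that joins head, middle and tail, had the largest of their log2 changes at -0.22 (SE 0.12, limma adjusted p = 0.237). Med14 was 6.89 and 7.11 FPKM in iPHet 1 and 3 against 9.98 and 9.48 FPKM in iPHet 2 and 4, and 6.59 to 7.22 FPKM in iPKO. Only the even-numbered control libraries stood apart for Med14. Med9, a small middle subunit, was 11.2 to 12.6 FPKM in iPHet and 9.82 to 10.7 FPKM in iPKO, without overlap (limma adjusted p = 0.0527, and 0.0385 with the replicate block). Med1, the subunit that nuclear receptors bind, was 39.1 ± 5.87 and 34.2 ± 5.54 FPKM (SD, n = 4). Its log2 change was -0.21 in libraries 1 and 3 and -0.18 in libraries 2 and 4, with limma adjusted p = 0.389 and, with the block, 0.0276. Med31, a conserved middle subunit, was 7.54 ± 0.748 and 8.73 ± 0.523 FPKM (n = 4, limma adjusted p = 0.145, and 0.0460 with the block). Med10 was lower by 0.43 in libraries 1 and 3 and higher by 0.29 in libraries 2 and 4, as log2 changes. The hinge partners Med7 and Med21 had log2 changes of 0.17 and 0.11, Med4 one of -0.03, and Med26, which recruits elongation factors, one of 0.08.

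In the tail 0 of 9 transcripts were called, and log2 changes ran from -0.24 to 0.15. By FPKM, Med28 was the most abundant member of the complex in iPHet at 71.1 ± 7.07 FPKM, with 70.1 ± 10.1 FPKM in iPKO (SD, n = 4). Med28 was lower in iPKO in the odd-numbered libraries (77.7 and 76.8 against 63.7 and 59.3 FPKM) and higher in the even-numbered ones (65.6 and 64.5 against 79.7 and 77.7 FPKM). Med29, the tail member with the largest log2 change (-0.24, SE 0.17, limma adjusted p = 0.368), was likewise lower by 0.69 in libraries 1 and 3 and higher by 0.20 in libraries 2 and 4.

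Med16, a tail subunit next to Med23 and Med24, was lower in both pairs of libraries, at 11.4 ± 1.24 and 9.70 ± 0.712 FPKM (n = 4, limma adjusted p = 0.141, and 0.0414 with the block). Med23, a target of growth factor signalling, and Med24 differed by 0.06 and 0.15 on the log2 scale. Med15, which binds activators such as SREBP, differed by 0.03 and Med30 by -0.01. Med27 had the lowest iPHet FPKM of the tail, at 6.90 ± 0.384 and 6.45 ± 0.849 FPKM (SD, n = 4). Med25, the target of the viral activator VP16, was 50.9 ± 1.52 and 49.3 ± 3.41 FPKM (SD, n = 4). That level is uncertain because the FPKM of Med25 was 2.09 times the midpoint of its own deposited bounds. Values outside their bounds in all 8 libraries were found for 8 members (Med9, Med12, Med25, Med26, Med28, Med29, Med31 and Ccnc), and Med17 was below its lower bound in the 4 iPKO libraries. By midpoints in iPHet, Med19 (62.0) was above Med28 (61.5) and Med29 (6.11) below Med27 (6.91), so both orders hold for the FPKM alone. With midpoints in place of FPKM the ratio for Med17 was 2.43, close to the 2.41 of the FPKM.

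**Figure D3:**
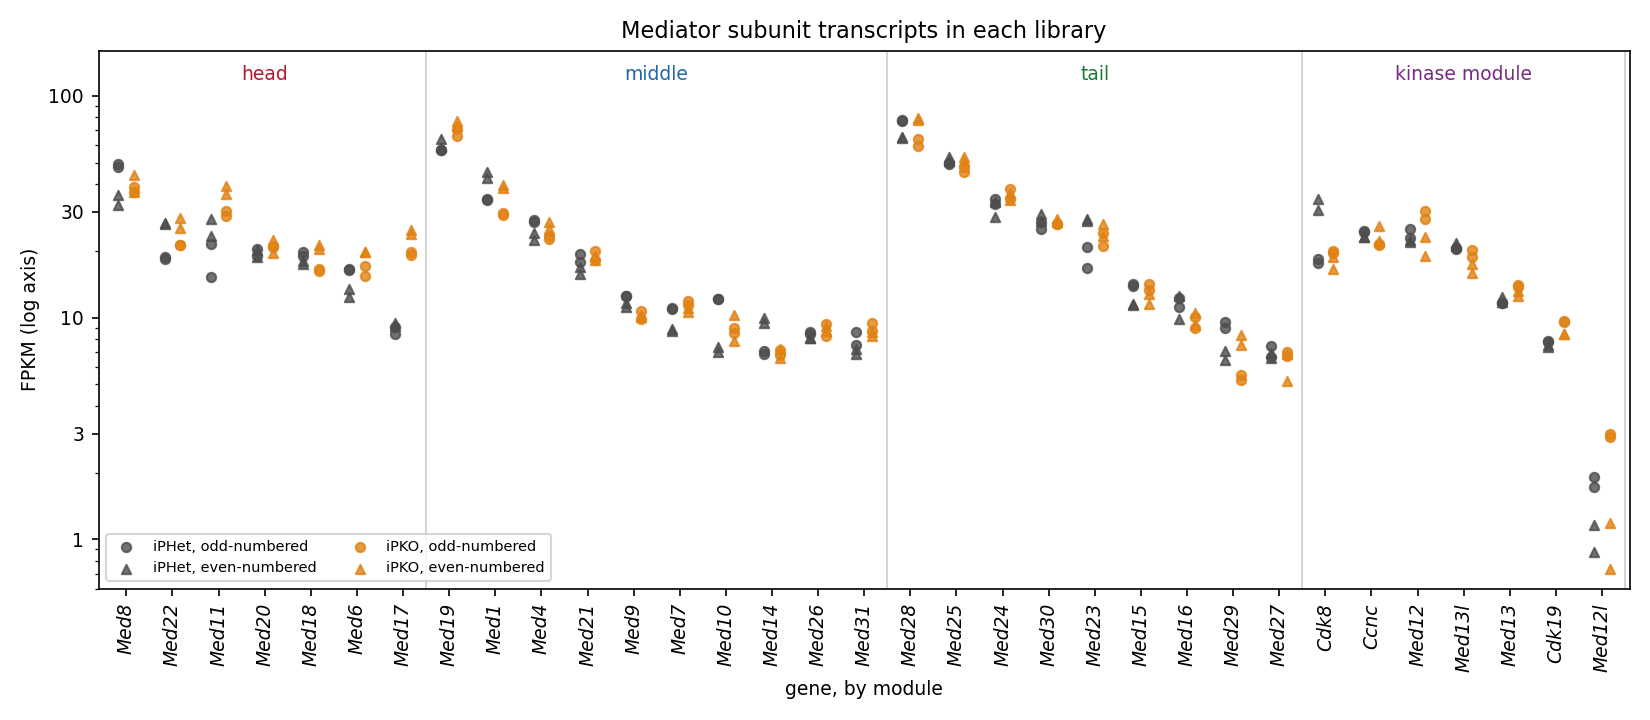
FPKM (vertical axis, logarithmic) of the 33 transcripts in each library, by module and in falling order of the iPHet mean. Grey is iPHet and orange iPKO, circles are odd-numbered and triangles even-numbered libraries. Means in iPHet run from 1.42 for Med12l to 71.1 for Med28, and the points of Med17 separate by genotype.

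The kinase module binds the core reversibly and holds 3 paralog pairs, of which each complex carries 1 member, so their balance is given. None of its 7 transcripts was called, and log2 changes ran from -0.36 to 0.22. Cdk8, the main kinase, had the largest of these changes and the libraries that stood apart were controls. Cdk8 stood at 18.4, 34.3, 17.7 and 30.7 FPKM in iPHet 1 to 4 and at 19.6, 18.8, 20.1 and 16.7 FPKM in iPKO 1 to 4. Only iPHet 2 and 4 were high, and the other 6 libraries lay between 16.7 and 20.1 FPKM. The level of Cdk8 is uncertain, because its FPKM lay outside their own deposited bounds in 6 of the 8 libraries. By midpoints of the bounds the mean was 19.7 in iPHet and 16.9 in iPKO, a ratio of 0.857 against 0.742 by FPKM. By FPKM the log2 change of Cdk8 was 0.13 in libraries 1 and 3 and -0.84 in libraries 2 and 4. It was -0.36 over all (SE 0.21, limma adjusted p = 0.293). This gap between pairs, 0.97, was the widest of the 32 members other than Med17, whose median was 0.16, against 0.22 over all tested genes.

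Cdk19, the paralog of Cdk8, was higher without overlap at 7.64 ± 0.216 and 9.05 ± 0.673 FPKM (SD, n = 4). Its log2 change of 0.22 (SE 0.07) had limma adjusted p = 0.0626, and 0.0324 with the block. By FPKM the ratio of mean Cdk8 to mean Cdk19 was 3.31 in iPHet and 2.07 in iPKO. In the odd-numbered libraries it was 2.37 and 2.25 against 2.02 and 2.09. These ratios carry the uncertainty of the Cdk8 FPKM given above. Ccnc, the cyclin of both kinases, was 23.8 ± 0.798 and 22.7 ± 2.14 FPKM (SD, n = 4). Med13, which docks the kinase module on the core, was higher without overlap at 11.9 ± 0.365 and 13.4 ± 0.698 FPKM, and its paralog Med13l lower without overlap at 21.0 ± 0.565 and 18.1 ± 1.85 FPKM (SD, n = 4). Neither passed the threshold (limma adjusted p of 0.102 and 0.104). The ratio of mean Med13 to mean Med13l was 0.565 in iPHet and 0.740 in iPKO, and each iPKO library (0.682 to 0.831) was above each iPHet library (0.540 to 0.586).

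Med12, the subunit that activates the kinase, was 23.1 ± 1.34 and 25.1 ± 5.05 FPKM (n = 4, limma adjusted p = 0.686). Its paralog Med12l was the lowest transcript of the complex and differed between the library pairs. Med12l was 1.73 and 1.92 FPKM in iPHet 1 and 3 and 2.90 and 3.00 FPKM in iPKO 1 and 3. In libraries 2 and 4 it was 1.16 and 0.877 FPKM in iPHet and 1.19 and 0.738 FPKM in iPKO. The genotypes thus separated in libraries 1 and 3 (log2 change 0.48) and overlapped in libraries 2 and 4 (log2 change -0.04). Over all libraries Med12l was not called (log2 change 0.22, SE 0.30, limma adjusted p = 0.662). In bulk samples such as these, fewer cells of a type and less RNA per cell cannot be told apart.

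Across the complex, 6 of the 32 members other than Med17 had groups that did not overlap. They were 4 higher (Med11, Med13, Med19 and Cdk19, 12.5%) and 2 lower (Med9 and Med13l, 6.25%), against 10.1% and 15.0% of all tested genes. Between the odd-numbered and the even-numbered libraries the direction of the log2 change was opposite for 15 of the 32 members (46.9%) and for 34.5% of all tested genes. Of the other 17, 11 were up and 6 down in both pairs. Med11 was the 1 member besides Med17 with a log2 change over 0.5 in both pairs, which 2.79% of all tested genes reached. The summed FPKM of the 33 transcripts was 694 to 710 in iPHet and 699 to 760 in iPKO, with the libraries iPKO 2 and 4 at the top. This sum includes Med17, whose change chose the list. The summed FPKM over all genes also differed, at 458856 and 458690 in iPHet 1 and 3 against 411827 to 421412 in the other libraries. The sums of the members are therefore not on the same scale in every library.

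**Figure D4:**
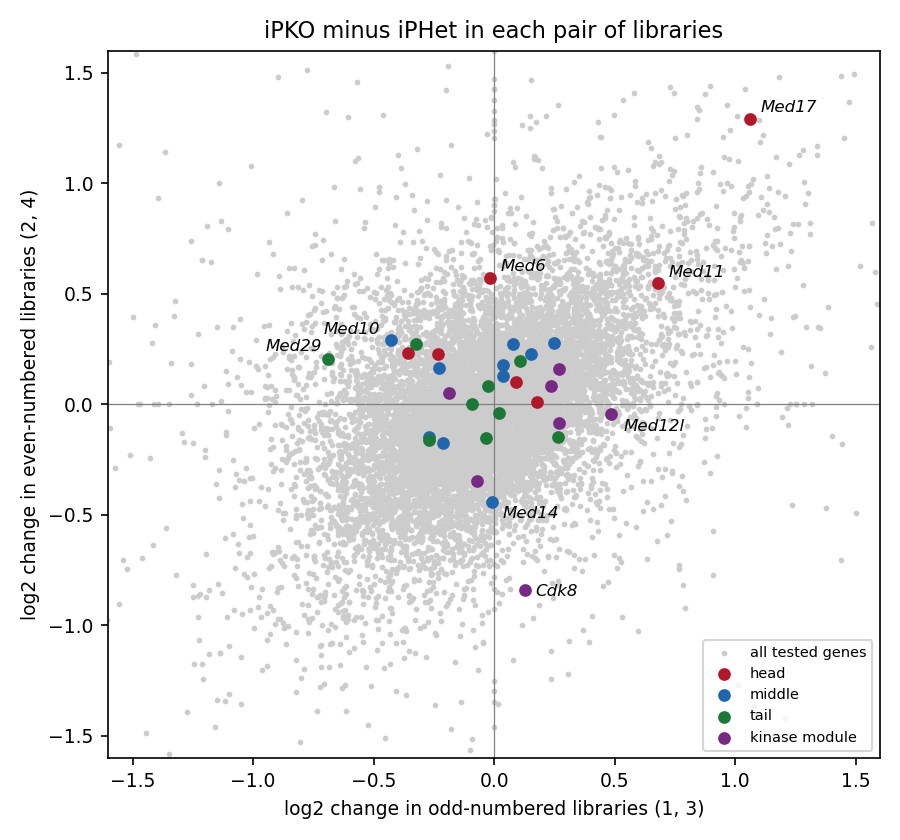
Log2 change of iPKO against iPHet in libraries 1 and 3 (horizontal) and in libraries 2 and 4 (vertical), for all tested genes (grey) and for the members by module. Axes end at 1.6, which leaves out 296 genes. Med17 lies at 1.06 and 1.29, Med11 at 0.68 and 0.55, and 15 members lie in the quadrants of opposite direction.

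Mediator works beside RNA polymerase II, the general factors that place it and the factors that release it from its pause, and these were followed as 4 comparison lists. Over all tested genes 6.30% were called higher and 9.53% lower, and no list was tested against these shares. Of 12 subunits of RNA polymerase II 0 rose and 1 fell (8.33%), at a median log2 change of -0.15. Polr2f, a subunit shared by all nuclear polymerases, fell from 60.7 ± 6.26 to 42.5 ± 8.22 FPKM (n = 4, limma adjusted p = 0.0420), with log2 changes of -0.88 in libraries 1 and 3 and -0.16 in libraries 2 and 4. It was not called with median-ratio scaling, with the block, or without any single library except iPKO 2 or 4. Polr2c and Polr2h, the next by p, had log2 changes of -0.18 and -0.28 (limma adjusted p of 0.107 and 0.141). Of 18 general transcription factors 1 rose (5.56%) and 0 fell, at a median of 0.05. Gtf2h2, a subunit of TFIIH, rose from 22.4 ± 2.29 to 30.7 ± 1.79 FPKM (n = 4, limma adjusted p = 0.0112). In libraries 2 and 4 alone Gtf2h2 was not called (log2 change 0.31, limma adjusted p = 0.0566). The TFIIH kinase subunits Mnat1 and Cdk7 were not called, at log2 changes of -0.23 and 0.14 (limma adjusted p of 0.0504 and 0.0998).

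Of 15 tested TBP-associated factors of TFIID and SAGA, 1 rose (6.67%) and 2 fell (13.3%), at a median log2 change of -0.003. Taf6l, a SAGA subunit, rose from 14.1 ± 0.714 to 21.8 ± 1.54 FPKM, and Taf10, shared by TFIID and SAGA, fell from 34.6 ± 5.87 to 21.2 ± 2.55 FPKM (n = 4, limma adjusted p of 0.00165 and 0.0131). The log2 change of Taf10 was -1.01 in libraries 1 and 3 and -0.33 in libraries 2 and 4. Taf1, the largest subunit of TFIID, fell from 34.2 ± 4.32 to 25.9 ± 1.75 FPKM (n = 4, limma adjusted p = 0.0329), but was not called with either other scaling, with the block, or without iPHet 2 or 4 or iPKO 1, 2 or 4 (up to 0.0795).

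Of 26 factors of pause release and elongation 2 rose (7.69%) and 5 fell (19.2%), at a median log2 change of -0.04, against 6.30% and 9.53% of all tested genes. The difference between these shares was not tested. Hexim1, the inhibitor of the elongation kinase P-TEFb, fell from 22.3 ± 0.782 to 13.3 ± 0.304 FPKM (n = 4, limma adjusted p = 0.000380). Cdk9, the kinase of P-TEFb, fell from 101 ± 7.96 to 65.0 ± 5.92 FPKM, and Nelfe, a subunit of the pausing factor NELF, from 52.5 ± 2.62 to 33.3 ± 3.79 FPKM (n = 4, limma adjusted p of 0.00320 and 0.00301). The other calls, named after their values were seen, were the cyclins of Cdk9, Ccnt2 and Ccnt1, which rose 1.38-fold and 1.18-fold, and Supt5 and Cdc73, which fell. Supt5 and Cdc73 were not called under either other scaling, and Ccnt1, Supt5 and Cdc73 were each lost without at least 7 of the 8 single libraries. Of these 12 calls in the 4 lists, 7 were kept whichever single library was left out. With pairs averaged limma kept 0 of the 12, and Prmt5 was not called there either. With an estimated correlation within pairs limma kept 1, Hexim1.

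**Figure D5:**
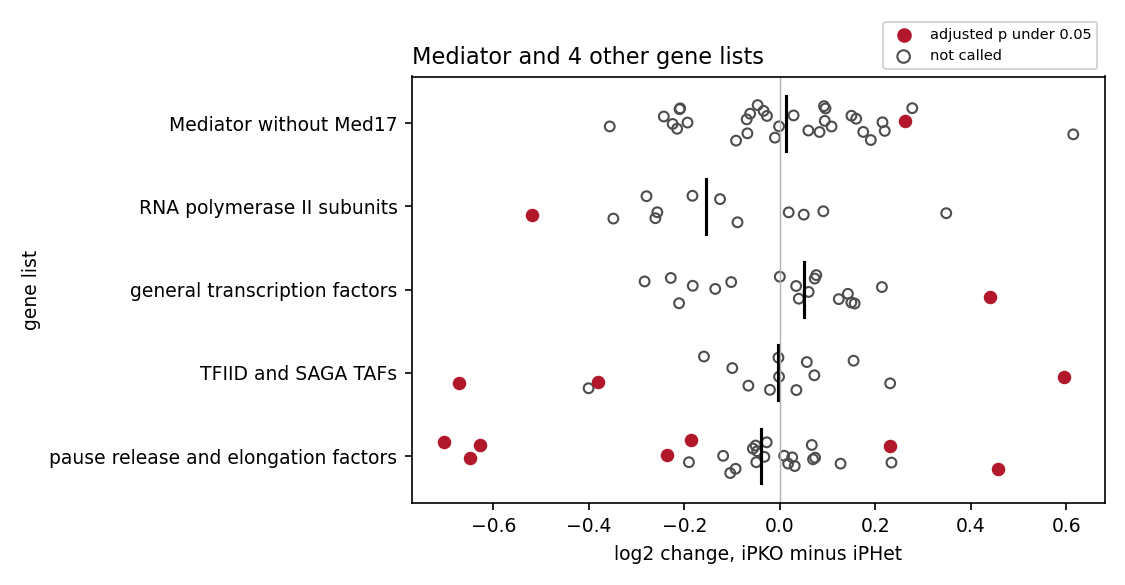
Log2 change of each tested gene (horizontal axis) in the 32 members of Mediator other than Med17 and in the 4 comparison lists, with the median as a black line. Filled points passed a limma adjusted p of 0.05 over all genes and open points did not. Mediator has 1 filled point, Med19 at 0.26, and the pause release and elongation list has 7, from -0.70 to 0.46.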

How the data were processed

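RNA of 8 libraries, 4 iPHet and 4 iPKO, was sequenced as read pairs of 100 bases. The values the authors deposited are FPKM per gene, each with a lower bound, an upper bound and a status, per the file headers. The submitters' processing notes name Trimmomatic and the build mm10. Neither aligner, FPKM program, scaling nor strand setting is given in the sources used here. Without counts the absolute depth is unknown, and the number of libraries limits the precision. Summed FPKM ran from 411827 to 458856. Between 21.7% and 29.1% of values of at least 1 FPKM lay outside their own bounds. Every member had the status OK.

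Rows of 19 identifiers with several loci were summed. The design foresaw limma for FPKM. The 12462 genes that averaged 1 FPKM or more in a genotype were fitted as log2(FPKM + 1) with limma 3.58.1 and an intensity trend in R 4.3.3, using 8 libraries and no covariate, with Benjamini-Hochberg adjustment. This scale understates changes of low genes. Intervals are 95%. The script was tested on simulated data. Gene models came from GENCODE vM21 and promoters from RefSeq GRCm38.p6. File starts were moved by 1 to count from 1, since 77.8% were 1 less than annotated.

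Deviations from the genotype means correlated at 0.104, 0.162, 0.204 and 0.107 between equally numbered libraries. All were above 0.1, the cut used for fitting the numbers as a block, and the labels give no pairing. Libraries of other numbers but the same parity correlated at 0.0770 to 0.124. These ranges overlap, so pairing by number cannot be told apart from shared parity, and adjusted p with the block rest on an unproven pairing.

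Members, lists and alternatives were chosen with earlier results of these data known. The rule for named genes took Med17, called members, the members of each module with the highest and lowest level or the largest change not called, paralog pairs, genes overlapping a called member or next to Med17, and up to 3 genes per comparison list with the smallest p. Other members are named to account for all 33. Of 17 listed TBP-associated factors 1 is not analysed here and 1 was under the filter. Alternatives were another pseudocount, other filters, 2 other scalings, the block, fits for library pairs, protein-coding genes alone, no trend, each library left out and, chosen after seeing the data, midpoints of the deposited bounds.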

Additional observations from a re-analysis of the deposited data

Results flagged for a closer look

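Med13 in iPHet had 1 library away from the other 3. iPHet 2 was at 12.4 FPKM and the others at 11.6 to 11.7 FPKM. The gap was 0.865 of the range between the lowest and the highest library, above the limit of 0.829 for 4 libraries. Chance gives about 1 such group in 20, and 100 groups were checked. The lowest iPKO library, iPKO 4, was at 12.5 FPKM, just above iPHet 2.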

How the results depend on the processing

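The log2 difference of Med17 stayed between 1.06 and 1.29 over 22 alternatives. Counts moved more. Of 12462 tested genes 1973 were called, against 3427 with the replicate block, 52 with an estimated correlation within pairs, 7 with pair averages and 6 with pair averages and an odd/even term. Libraries 1 and 3 alone gave 5316 and libraries 2 and 4 alone 4581, and leaving out 1 library gave 1264 to 1416. Of the members other than Med17, 1 was called higher. This became 2 with a pseudocount of 0.1, a mean of at least 5 FPKM, median-ratio scaling, protein-coding genes alone or midpoints of the bounds, and 3 with quantile normalization. It became 4 with the replicate block, 5 in libraries 1 and 3, 6 in libraries 2 and 4, and 0 in each of the 3 fits for library pairs. Leaving out 1 library gave 0 to 2. Members called lower, 0 at first, became 1 with a mean of at least 5 FPKM (Med9), 3 with the block, 9 in libraries 1 and 3, and 3 in libraries 2 and 4. Calls over all 12462 genes grew too, to 1355 higher and 2072 lower with the block. They were 2111 and 3205 in libraries 1 and 3, and 2036 and 2545 in libraries 2 and 4. The member counts were not tested against these. In libraries 2 and 4 alone the log2 changes of Med18 and Med28 were 0.23 and 0.27, both called from 2 near-copy libraries per genotype. Over all libraries they were -0.002 and -0.03 and not called, and in libraries 1 and 3 they were -0.23 and -0.32. Calls higher were 39.8% of all calls, 49.7% with quantile normalization and 52.7% with median-ratio scaling. The pair fits have fewer samples or less weight per library, and neither fit on pair averages called Prmt5. The cause of the other moves was not tested.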

Other observations

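Of the transcripts whose loci overlap that of a member, 2 were called, both chosen after their values were seen. Most of the overlapping transcripts were under the filter and were not tested. Gm20517, Gm9183, 2310031A07Rik, Tmx2, Zdhhc5, Tm7sf3, Gm13402, Tstd3 and 4632419I22Rik were tested and not called. Over all tested genes 15.8% were called in either direction, and the overlapping transcripts were not tested against that share. Gm26819, on the strand opposite to Med10, was 2.27 to 2.76 FPKM in iPHet and 3.92 to 4.38 FPKM in iPKO (limma adjusted p = 0.00359). Med10 itself was not called, and reads of the pair cannot be told apart without strand. Gm22059, a snoRNA gene inside Med24, was listed at 0 in the 4 iPHet libraries and at 25.1, 25.3, 42.6 and 48.6 FPKM in iPKO 1 to 4. FPKM of such short genes can rest on few fragments, and an exact 0 can be a failed estimate.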
